A study of Rattus norvegicus with 2 samples.

Results

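The ATP-binding cassette (ABC) transporter genes other than those of P-glycoprotein were followed on 2 Clariom S arrays, a microarray that reads each transcript with 1 set of short probes. One array held RNA labelled as left ventricle from a male SD (Sprague Dawley) rat given cocaine at 20 mg/kg daily for 14 days through the tail vein, and the other held RNA with the same tissue label from a male SD rat of the control group. The sample labels give that control as untreated, whereas the study's methods give saline for control rats and an age of 8 weeks at the start for all. The genes were chosen by symbol alone, as every probe set with a single annotated gene symbol that begins with Abca to Abcg and a digit, leaving out the P-glycoprotein genes Abcb1a and Abcb1b, and Abca3. This gave 36 genes, each with 1 probe set, among 15037 named genes. All 36 carried the same symbol in the current RefSeq gene table, which holds 54 protein-coding genes whose symbols begin in this way. With 1 rat and 1 array on each side there are no replicates, so no value below has an SD or a p-value, and every difference describes these 2 arrays only.

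Most ABC proteins use the energy of ATP to move lipids, drugs, conjugates, peptides or metal-containing compounds across membranes. The subfamilies are lettered by sequence: A proteins mainly handle lipids, B proteins include drug, bile lipid, peptide and mitochondrial transporters, C proteins include the multidrug resistance proteins and the sulfonylurea receptors of potassium channels, and D proteins feed fatty acids into peroxisomes or serve lysosomes. E and F proteins have no membrane domain and act at the ribosome, and G proteins carry sterols and drugs. In heart the sulfonylurea receptor SUR2 is a part of the ATP-sensitive potassium channel of muscle cells, and in lung macrophages the sterol exporters clear cholesterol taken up with surfactant.

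Values were normalized intensities, linear in scale. No flags for detection came with them, so 1155 odorant receptor genes (olfactory and vomeronasal) stood in for background, and the 95th percentile of their values on each array served as its limit, 64.1 with cocaine and 71.5 in the control. Of the 36 ABC genes, 25 lay above the limit on both arrays, or 69.4%, against 64.9% of all named genes. Abcb8 passed on the cocaine array only and 10 genes on neither. Markers of lung epithelium, all alveolar but for the airway gene Scgb1a1, were bright on both arrays despite the tissue label. All 12 lay above the limit, with a summed intensity of 3470490 with cocaine and 3473500 in the control. These sums include Sftpc, which had the top value of each array and the same value on both, and so are held close together in part by that gene. Of 12 cardiomyocyte markers, 9 lay above the limit with cocaine and 7 in the control, and the intensities of all 12 summed to 14116 with cocaine and 10435 in the control. Most of both sums came from Myl2 and Actc1, which went in opposite directions. Myl2 stood at 6344 with cocaine and 7778 in the control, and Actc1 at 5276 with cocaine and 1842 in the control. Myh7, a cardiac myosin heavy chain gene, was under the limit on both arrays. Myh6, another such gene, which the study lists among those raised by cocaine, was not among the 12 markers. Binding strength varies from one probe set to the next, and intensities are therefore compared between arrays, not between genes. Fewer cells of a type and less RNA per cell cannot be told apart in such tissue RNA.

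With cocaine, 0 of the 36 genes were 1.5-fold higher or more, whereas 4.63% of all named genes were. At least 1.5-fold lower values were seen for 2 of the 36, Abcc2 and Abcc12, or for a share close to the 4.95% of all named genes, and neither of these lay above the background limit on any array. None of the 36 reached a 2-fold difference in either direction, a size reached upward by 0.698% and downward by 0.599% of named genes. Among the 25 ABC genes above the limit on both arrays, 0 were 1.5-fold higher and 0 were 1.5-fold lower, against 4.21% and 2.83% of the 9763 named genes above it. The log2 differences of these 25 (cocaine minus control) ran from -0.58 to 0.49. Their median size without regard to sign was 0.21, against 0.20 for all named genes above the limit.

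The P-glycoprotein genes left out by the rule stood outside that range, and Abca3 was not analysed here. Abcb1b, a P-glycoprotein gene, had an intensity of 32371 with cocaine and 7082 in the control, a 4.57-fold difference, and Abcb1a stood at 300.1 with cocaine and 85.2 in the control. In RefSeq they lie beside Abcb4 on chromosome 4. Abcb4, which encodes the pump that places phosphatidylcholine in bile, stood at 63.5 with cocaine and 45.2 in the control, both under the limit, so that no fold is given for it. With 1 array on each side the difference between these genes and the rest of the family could not be tested.

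**Figure D1:**
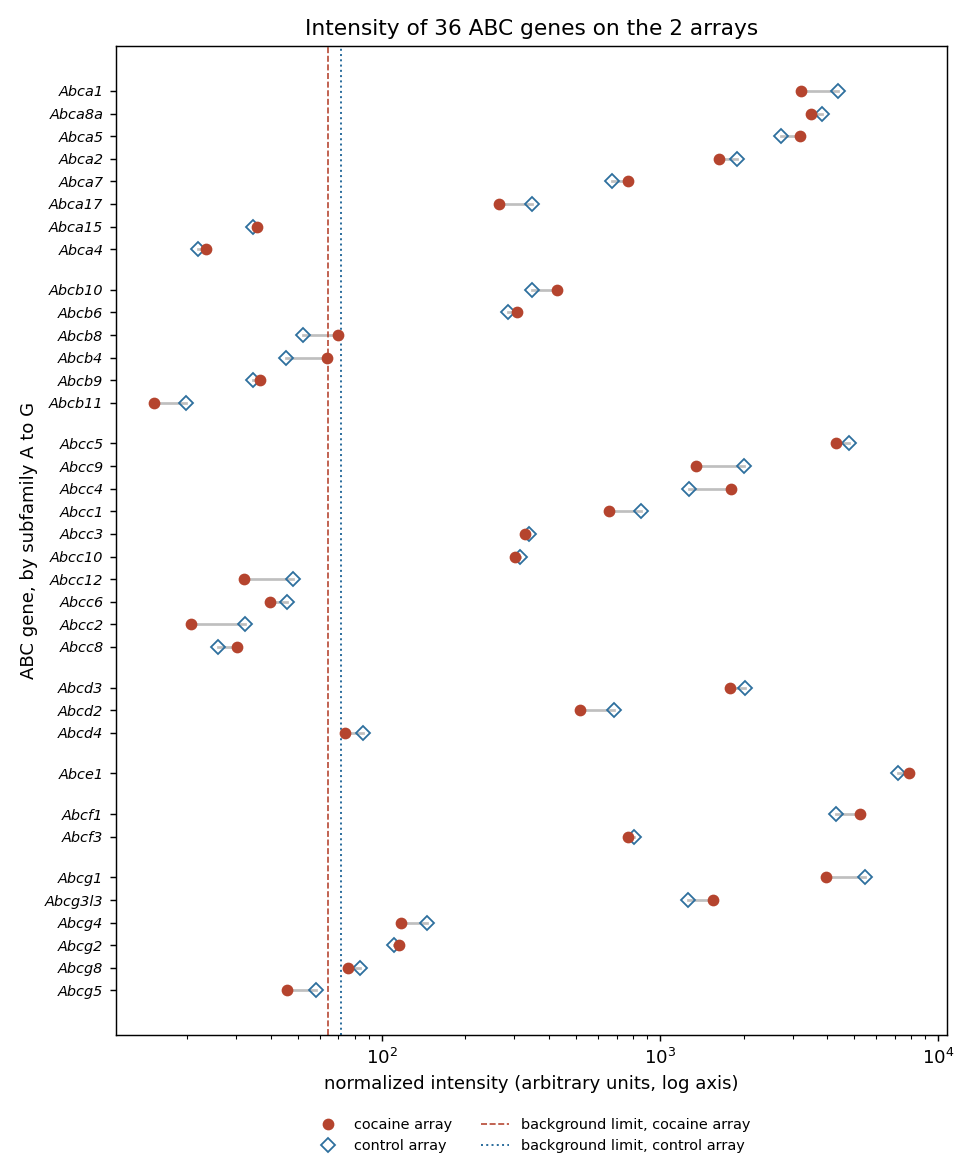
Normalized intensity (log axis) of the 36 ABC genes on the cocaine array (filled circles) and the control array (open diamonds), grouped by subfamily A to G, with the background limit of each array (64.1 cocaine, 71.5 control) as a vertical line. The 2 marks of each gene differ by under 2-fold, and 10 genes sit to the left of both limits.

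In direction the genes leaned slightly downward. Of the 36, 15 were higher and 21 lower on the cocaine array, with a median log2 difference of -0.09, against 0.02 for all named genes. Of the 25 above the limit, 9 were higher and 16 lower, and their median was -0.12 against 0.05 for all named genes above it. As a share of all 36, 41.7% were higher with cocaine, against 52.4% of all named genes.

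By subfamily, the genes above the limit on both arrays are counted first, with no test of the differences between subfamilies. For comparison, 4141 of the 9763 named genes above the limit were lower and 57.5% were higher. In subfamily C 5 of 6 such genes were lower, with a median log2 difference of -0.11, against 8 of 10 and -0.18 when the genes under the limit were kept. In subfamily D all 3 genes lay above the limit and all 3 were lower, with a median of -0.21. That median is the value of Abcd4, which lay barely above the limits at 74.2 with cocaine and 85.8 in the control. In subfamily A 4 of 6 were lower, with a median of -0.17, against 4 of 8 and -0.03 over all its genes. In subfamily G 3 of 5 were lower, with a median of -0.14, against 4 of 6 and -0.22 over all. In subfamily B the 2 genes above the limit were both higher, with a median of 0.21. With all its genes kept, 5 of 6 were higher, but 3 of the 6 lay under the limit on both arrays. For such genes, in this and the other subfamilies, the signal is too low to read a direction. Abce1 of subfamily E was slightly higher, and the 2 genes of subfamily F went in opposite directions.

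**Figure D2:**
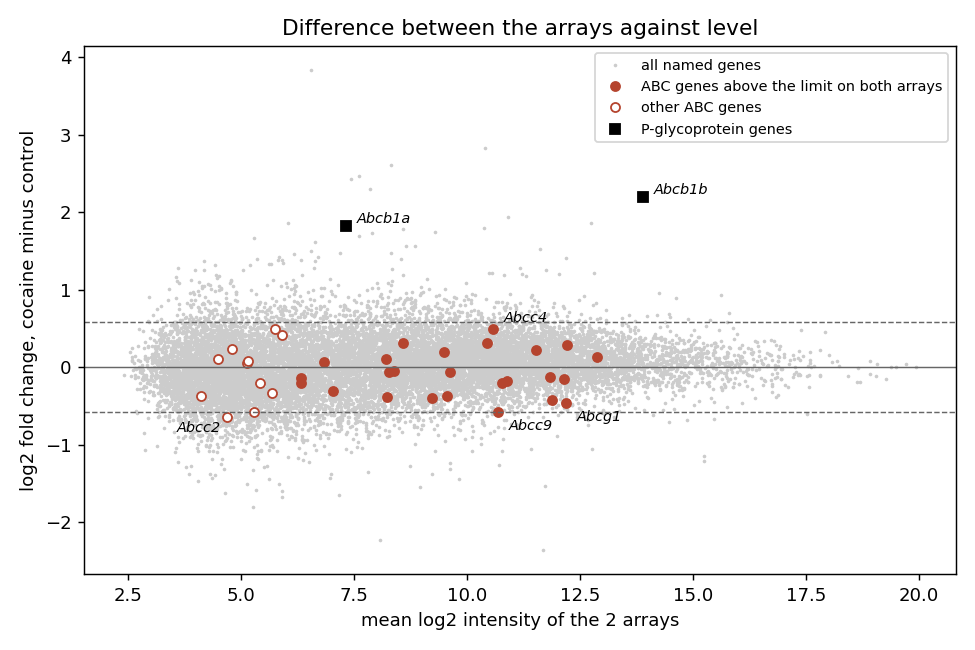
Log2 fold change (cocaine minus control) against the mean log2 intensity of the 2 arrays for all 15037 named genes (grey), ABC genes above the limit on both arrays (filled red), other ABC genes (open red) and the P-glycoprotein genes Abcb1a and Abcb1b (black squares). Dashed lines mark 1.5-fold. The filled red points lie between -0.58 and 0.49, inside both dashed lines, and the black squares lie at 1.82 and 2.19.

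The largest difference among the ABC genes above the limit was that of Abcc9. It encodes SUR2, the regulatory subunit of ATP-sensitive potassium channels of heart, smooth muscle and pericytes. Abcc9 had an intensity of 1346 with cocaine and 2013 in the control, so that the control value was 1.495-fold the cocaine value, just short of the 1.5-fold mark. Its log2 difference of -0.58 ranked 283 from the lowest among the 9763 named genes above the limit. Under centring, quantile normalization or removal of a loess trend it passed that mark, with log2 differences of -0.60, -0.65 and -0.66. Its pore subunits were read through 2 genes, of which 1 lay above the limit. Kcnj8, which encodes the pore subunit Kir6.1 found with SUR2 in vessels, stood at 210.8 with cocaine and 197.9 in the control. Kcnj11, the pore subunit Kir6.2 of heart muscle and pancreatic beta cells, stood at 10.5 with cocaine and 10.6 in the control, under the limit, so that its level cannot be compared. The other sulfonylurea receptor, Abcc8 (SUR1, best known from beta cells), stood at 30.3 with cocaine and 25.8 in the control, also under it on both arrays.

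Cells that carry SUR2 were looked at through their markers. Of 8 smooth muscle and pericyte markers, all above the limit, 6 were higher and 2 lower on the cocaine array, with a median log2 difference of 0.05 and summed intensities of 63943 with cocaine and 59621 in the control. The pericyte markers went both ways, Pdgfrb at -0.40 and Notch3 at -0.35 but Rgs5 at 0.59. Of the cardiomyocyte markers 9 of 12 were higher, with a median of 1.41, but only 6 lay above the limit on both arrays. Of these 6, 5 were higher and 1 was lower, with a median of 1.65. The part of these cell types in the value of Abcc9 was not tested.

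The drug and conjugate efflux pumps, the closest to P-glycoprotein in function, had small differences in both directions. Of 8 such genes, 6 lay above the limit on both arrays, 2 of them higher and 4 lower. Abcc4, or MRP4, which exports cyclic nucleotides, prostaglandins and nucleotide drugs, had the highest log2 difference of the 25 genes above the limit at deposited values. It stood at 1797 with cocaine and 1275 in the control, 1.41-fold higher, a log2 difference of 0.49 and rank 698 from the highest among the named genes above the limit. Abcc1, or MRP1, which exports glutathione conjugates such as leukotriene C4, went the other way, at 659 with cocaine and 857 in the control, a log2 difference of -0.38.
The remaining pumps lay close together on the 2 arrays. Abcc5, or MRP5, which exports cyclic nucleotides, stood at 4283 with cocaine and 4769 in the control. Abcc3, or MRP3, a pump for glucuronides and bile acids, stood at 326.4 with cocaine and 339.3 in the control, and Abcc10 at 302.2 with cocaine and 314.7 in the control. Abcg2, the breast cancer resistance protein, a pump of capillaries, gut and stem cells with a broad range of drugs, stood at 116.0 with cocaine and 110.7 in the control, a log2 difference of 0.07.
Abcc2, the pump that passes conjugates from liver cells into bile, stood at 20.6 with cocaine and 32.3 in the control, and Abcc12 at 32.0 with cocaine and 48.1 in the control. These are the values behind the 2 genes counted as 1.5-fold lower, and since both lay under the limit on both arrays no fold is given for them. Partner genes under 1.5-fold are named here and below as examples chosen after their values were seen. Of 5 receptors and regulators that sense foreign compounds, Ahr, the aryl hydrocarbon receptor, was the only one at least 1.5-fold apart, at 5175 with cocaine and 2927 in the control, or 1.77-fold higher. Nfe2l2, which encodes the antioxidant regulator NRF2, stood at 4220 with cocaine and 4049 in the control and its inhibitor Keap1 at 570.8 with cocaine and 537.0 in the control. The pregnane X receptor gene Nr1i2 and the related Nr1i3 lay under the limit on both arrays.

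Promoter windows of 250 bases before and 50 after the start, taken from RefSeq for build GRCr8, were found for 28 of the 36 ABC genes. They were searched on both strands for the GC box GGGCGG, the E-box CACGTG, the TATA box TATAAA and GCGTG, the core of the element bound by the aryl hydrocarbon receptor. A GC box was present in 19 of the 28, or 67.9%, against 33.1% of all 33469 windows, and a GCGTG core in 15, or 53.6%, against 29.7%. A TATA box stood in 4 and an E-box in 3, or 14.3% and 10.7%, against 14.2% and 6.42% of all windows. The TATA box of Abcg5 and that of Abcg8 are the same stretch, in bases the genes share, counted for each gene. Abcc9 and Abcc4, at the opposite ends of the genes above the limit, each had a GC box and a GCGTG core. A match is a stretch of letters and no evidence of binding. No filter for protein-coding genes or for genes named on the arrays was applied to the 33469 windows. They and the 28 are therefore unlike sets, and the difference in shares was not tested.

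Of the 7 exporters of cholesterol and phospholipid, 5 lay above the limit on both arrays. Of these 5, 4 were lower on the cocaine array, against 4141 of the 9763 named genes above the limit. With so few genes this direction was not tested. Abca1, which loads cholesterol and phospholipid onto apolipoprotein A-I and is lost in human Tangier disease, stood at 3227 with cocaine and 4350 in the control, a log2 difference of -0.43. Abcg1, which passes cholesterol on to HDL particles and is abundant in alveolar macrophages, stood at 3946 with cocaine and 5462 in the control, a log2 difference of -0.47 and rank 537 from the lowest among genes above the limit. Both genes are targets of the sterol-sensing LXR receptors and were lower by similar amounts.
Abcg4, a relative of Abcg1 known mainly from brain, stood at 117.6 with cocaine and 145.2 in the control, a log2 difference of -0.30. Abca7, which handles phospholipid and takes part in phagocytosis, was the exception above the limit, at 770.6 with cocaine and 673.4 in the control, or 0.19 higher on the log2 scale. Abcg5 and Abcg8, whose proteins pair to expel plant sterols from gut and liver cells, were dim: Abcg8 stood at 76.0 with cocaine and 84.0 in the control, barely above the limits, and Abcg5 at 45.9 with cocaine and 58.2 in the control, under them.

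Of 10 partners of these exporters, 4 were higher and 6 lower on the cocaine array, with a median log2 difference of -0.09, and 0 reached 1.5-fold. The LXR genes went apart, Nr1h3 at 3379 with cocaine and 2752 in the control (0.30) and Nr1h2 at 4545 with cocaine and 4957 in the control (-0.12). Apoe, the apolipoprotein E gene, stood at 48606 with cocaine and 56636 in the control (-0.22). Other genes controlled by LXR went both ways, Mylip at -0.12 and Lpcat3 at -0.06 but Pltp, the phospholipid transfer protein gene, at 0.20. Of 8 macrophage markers 6 were lower and 1 was higher (median -0.24). The lower ones included C1qb at -0.57, Cd68 at -0.47, Mrc1 at -0.40, Csf1r at -0.33 and C1qa at -0.12. The higher one was Adgre1 at 0.25, above the limit on both arrays. The summed intensity of the 8 markers was 756073 with cocaine and 760875 in the control, nearly all of it from Lyz2, which had the same value on both. Marco, a scavenger receptor of alveolar macrophages, lay under the limit on both arrays. Whether macrophage RNA has a part in the values of Abca1 and Abcg1 was not tested.

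The 160 bases before the furthest upstream annotated start of Abca1 are shown as those of a sterol exporter with a lower value, at chr5:72596564-72596723 of GRCr8, minus strand. Capitals mark the motifs, here 1 GC box and 1 E-box.
Abca1: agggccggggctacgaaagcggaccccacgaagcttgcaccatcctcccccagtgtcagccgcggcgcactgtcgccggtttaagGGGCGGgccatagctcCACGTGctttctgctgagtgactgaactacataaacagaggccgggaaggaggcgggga
Abcg5 and Abcg8 are read in opposite directions from starts that lie so close that they share the 205 bases between them, at chr6:15717731-15717935 of GRCr8, given on the plus strand. They are shown because both genes were dim, and hold a TATA box, in capitals, as the only match among the 4 motifs.
Abcg5 and Abcg8: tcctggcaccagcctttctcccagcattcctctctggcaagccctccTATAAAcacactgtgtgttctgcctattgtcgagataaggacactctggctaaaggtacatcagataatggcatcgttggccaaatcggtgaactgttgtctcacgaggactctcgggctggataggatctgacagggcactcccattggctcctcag

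The other subfamily A genes showed no common direction. Abca2, a transporter of endosomes and lysosomes known from myelin-forming cells, stood at 1637 with cocaine and 1889 in the control (log2 difference -0.21). Abca5 stood at 3176 with cocaine and 2732 in the control (0.22), and Abca8a at 3506 with cocaine and 3821 in the control (-0.12). Abca4, the retinoid lipid transporter of photoreceptors, lay under the limit on both arrays at 23.4 with cocaine and 21.8 in the control. Abca15, of a rodent group known from testis, was also under it at 35.8 with cocaine and 34.5 in the control. Abca17 of the same group lay above it, at 264.0 with cocaine and 345.8 in the control (-0.39).

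Of the 3 mitochondrial transporters, the 2 above the limit on both arrays were higher, as were 57.5% of all named genes above it. Abcb10, an inner membrane protein needed for heme synthesis in red cell precursors, stood at 428.3 with cocaine and 346.7 in the control, a log2 difference of 0.30. Abcb6, linked to porphyrin transport, stood at 305.7 with cocaine and 283.5 in the control (0.11). Abcb8, which in mouse heart keeps iron from building up in mitochondria, stood at 69.6 with cocaine and 52.3 in the control, the control value under the limit. Because the cocaine value also lay under the higher of the limits, no lower bound above 1 could be given for its fold.
Of 9 heme and iron-sulfur partners, 6 were higher, and the median of the 9 was 0.18. Alas2, the heme synthesis enzyme of red cell precursors, stood at 613.9 with cocaine and 395.9 in the control, and was the only one at least 1.5-fold apart. Fech, which inserts iron into heme, was 0.57 higher on the log2 scale and Alas1, the general form of Alas2, 0.15. Red blood cell markers were higher in 5 of 5 cases, with summed intensities of 988.9 with cocaine and 651.2 in the control and 2 of the 5 above the limit on both. Alas2 belongs to this list as well as to the heme partners, and makes up most of the red blood cell sum on each array. The part of the red blood cell markers in the values of the mitochondrial ABC genes was not tested.

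**Figure D3:**
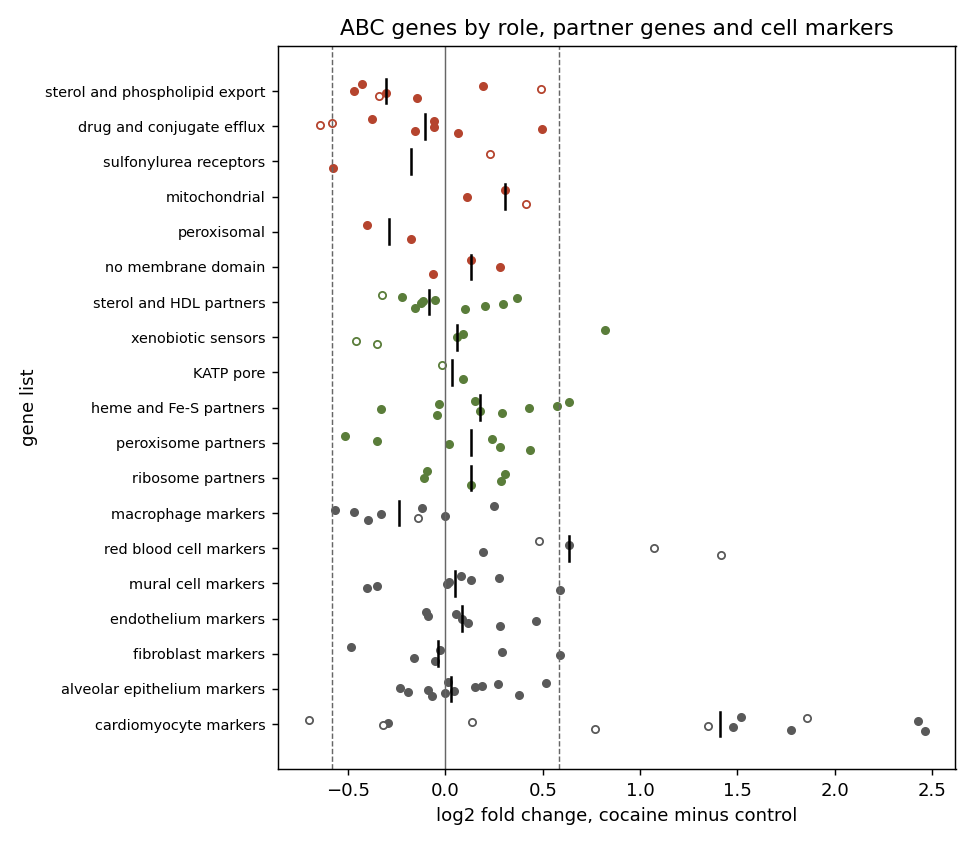
Log2 fold change (cocaine minus control) of ABC genes by role (red), their partner genes (green) and cell type markers (grey), with 1 point per gene, filled where the gene passed the limit on both arrays. Black bars are medians of all genes of a list and dashed lines mark 1.5-fold. All filled red points lie inside the dashed lines, whereas cardiomyocyte markers reach 2.46.

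The subfamily D members, of peroxisomes and lysosomes, were lower. Abcd2, which imports very long-chain fatty acids into peroxisomes, stood at 518.4 with cocaine and 686.7 in the control (log2 difference -0.41). The 250 bases before its start, at chr7:124191203-124191452 of GRCr8, minus strand, are shown as those of the member of subfamily D furthest from equality, with a GC box and a GCGTG core that overlap by 1 base in capitals.
Abcd2: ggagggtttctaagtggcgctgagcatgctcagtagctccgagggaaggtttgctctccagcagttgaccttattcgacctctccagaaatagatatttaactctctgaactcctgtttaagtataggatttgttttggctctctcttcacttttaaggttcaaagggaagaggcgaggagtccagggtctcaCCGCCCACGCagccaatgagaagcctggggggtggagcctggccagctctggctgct
Abcd3, or PMP70, an abundant peroxisomal membrane protein, stood at 1787 with cocaine and 2019 in the control (-0.18). Of 6 peroxisome partners 4 were higher, and the median of the 6 was 0.13. Ehhadh, the bifunctional enzyme of peroxisomal beta oxidation, had -0.51 and Hsd17b4, the other such enzyme, 0.24. Abcd4, which brings cobalamin out of lysosomes together with the protein of Lmbrd1, stood at 74.2 with cocaine and 85.8 in the control (-0.21). These values lay barely above the limits. Lmbrd1 stood at 5649 with cocaine and 5998 in the control. Abcb9, a lysosomal peptide transporter, lay under the limit on both arrays at 36.6 with cocaine and 34.5 in the control.

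The members that act at the ribosome differed by little. Abce1, which splits the ribosome after translation ends, stood at 7883 with cocaine and 7200 in the control (log2 difference 0.13). Abcf1, which takes part in initiation with eIF2, stood at 5217 with cocaine and 4296 in the control (0.28), and Abcf3 at 770.7 with cocaine and 806.5 in the control (-0.07). Their partners Pelo and Hbs1l, which rescue stalled ribosomes, were 0.13 and 0.29 higher on the log2 scale, and 0 of 5 ribosome partners reached 1.5-fold.

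Of the remaining members, Abcg3l3, one of a cluster of near relatives of Abcg3 on chromosome 14, stood at 1558 with cocaine and 1258 in the control (log2 difference 0.31), a value that is uncertain because related copies can share probe signal. Abcb11, the bile salt export pump of liver, lay under the limit on both arrays at 15.2 with cocaine and 19.8 in the control, and so did Abcc6, the liver protein whose loss in humans causes pseudoxanthoma elasticum, at 39.6 with cocaine and 45.7 in the control. Of 5 hepatocyte markers 1 lay above the limit, and Alb stood at 16.1 on both arrays. ABC genes that carry other symbols, and so are not members, were lower in 3 of 3 cases, against 4141 of the 9763 named genes above the limit. The chloride channel gene Cftr stood at 340.5 with cocaine and 381.9 in the control (-0.17). The peptide transporters of antigen presentation were Tap1 at 1122 with cocaine and 1345 in the control (-0.26) and Tap2 at 299.0 with cocaine and 328.0 in the control (-0.13).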

How the data were processed

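Left ventricle RNA, by its label, came from 1 rat per group, with 1 Clariom S array per rat. For every probe set the authors deposited a normalized, linear intensity. MAS5 is named in the submitters' processing notes and the Transcriptome Analysis Console in the study's methods. Version, build and background handling: not given in the sources used here. Such scaling makes the arrays comparable as wholes, and the sorted log2 values of named genes differed by at most 0.21. Whether MAS5 gave the deposited values was not settled here. Intensities of dim probe sets are noisy, which matters most for the genes under the background limit.

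The platform annotation paired 15049 of 24834 probe sets with 1 gene symbol and 0 with several. Log2 intensities (no pseudocount) were averaged per gene and subtracted, cocaine minus control. No test was run with 1 array per group, whose number sets the precision. A gene was counted as different at 1.5-fold, with the same share over all named genes beside it. All members were named; those at least 1.5-fold apart, a fixed set of transporters and the highest and lowest intensity of each subfamily were given in full, a choice of what to print and not a comparison of levels between genes. Of the partner genes those at least 1.5-fold apart were to be named, and others named in the text were chosen after their values were seen. The members, the role, partner and marker lists and the background limit were chosen with earlier results of these data known.

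The alternatives were median centring, quantile normalization, removal of a loess trend (span 0.3), floors at the 25th percentile of each array or at the background limit, the highest probe set, a 2-fold mark, a filter on level and the mean. The steps were tested on simulated data with shifts larger than any difference among the members. Shifts as small as those of the members were not simulated. Promoter sequences are those of RefSeq for GRCr8, matched by gene ID. Coordinates of that build were used for these sequences only. Python 3.11.15 with numpy 2.4.6, pandas 2.3.3, statsmodels 0.14.6 and matplotlib 3.10.9 was used.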

Additional observations from a re-analysis of the deposited data

How the results depend on the processing

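The count of ABC genes 1.5-fold higher or more with cocaine was 0 under all alternatives run. The count at least 1.5-fold lower was 2, Abcc2 and Abcc12, at deposited values, 3 with centred arrays, which added Abcc9, and 1, Abcc9 alone, with quantile normalization and also with the loess trend removed. It was 0 with a floor at the 25th percentile, with a floor at the background limit, with the 2-fold mark and among genes above the limit on both arrays. The floors remove the 2 dim genes by construction. Abcc9 therefore lies on either side of 1.5-fold according to the scaling, with log2 differences from -0.66 to -0.60 under centring, quantile normalization and loess against -0.58 at deposited values. The median log2 difference of the 36 genes was -0.09 and ranged from -0.12 to 0, the value of 0 being that with the background floor. The floor at the 25th percentile moved the median of all named genes by -0.11, so differences under it are to be read against that shift. All 25 genes above the limit on both arrays kept their sign under the 3 scalings (centring, quantile normalization and loess). Of the single genes, Abca1 moved by at least 0.1 under quantile normalization, to -0.53, and otherwise 7 genes moved under the 25th percentile floor and 9 under the background floor. No paired analysis was possible because each group holds 1 array. With 1 rat on each side, a difference between individual rats cannot be told apart from one due to treatment, and for the 10 genes under the limit on both arrays the signal over background is too low to read a direction.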
